A study of Mus musculus with 6 samples.

Results

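The genes described here are 9 receptors and secreted proteins with which macrophages take up modified lipoproteins, haemoglobin, dying cells and other debris: Cd36, Scarb1, Msr1, Marco, Olr1, Cd5l, Cd163, Stab1 and Lrp1. They were chosen as a named group with earlier results of these data known, so the choice is not independent of their values. All 9 were found among the 54648 gene symbols of the deposited counts. The RNA came from peritoneal cells of C57BL/6 mice aged 6 to 8 weeks and was sequenced in 3 WT and 3 FOXO3 KO libraries, the knockouts being homozygous littermates of the WT mice. All mice received 3% thioglycollate into the peritoneal cavity, and the cells were collected 4 days later and pelleted without a sort, so that every library holds whatever cells came with the macrophages. The labels name a genotype but no promoter, Cre or cell type that limits the deletion, both sexes were used without a note of which mouse was which, and nothing says that each library is 1 mouse, so p-values measure only the spread between these libraries. The comparison asks how the transcriptome of elicited peritoneal macrophages differs when FOXO3 is missing.

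Thioglycollate is an irritant that draws blood monocytes into the peritoneum, where they become macrophages that take up lipid and debris. Scavenger receptors are a set of structurally unrelated proteins that share ligands such as oxidized and acetylated LDL, which unlike the LDL receptor they take up without being shut off by the cholesterol that enters, so that macrophages can fill with lipid and become foam cells. FOXO3 is a forkhead transcription factor that insulin and growth factor signalling sends out of the nucleus.

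Library totals lay between 28083393 and 36424117 estimated counts, and no pair of libraries was alike within sampling noise. Levels are in CPM, which scales the counts of each library to the same size. Foxo3 itself was at 117, 107 and 73.1 CPM in WT 1, 2 and 3 and at 4.71, 104 and 4.29 CPM in FOXO3 KO 1, 2 and 3. The library labelled FOXO3 KO 2 therefore held Foxo3 transcript at the level of the WT libraries, and its label and its Foxo3 reads go against each other. The log2 fold change of Foxo3 was -1.40 (SE 1.22, edgeR adjusted p = 0.859) as labelled and -4.46 (SE 0.29, edgeR adjusted p = 0.105) without that library. WT 3 stood apart in another way, with a summed level of 10 resident peritoneal macrophage markers of 4620 CPM against 262 to 513 CPM in the other 5 libraries, and a summed level of 8 B cell markers of 5767 CPM against 304 to 1441 CPM. Sums of T cell (141 CPM), mast cell (790 CPM) and platelet markers (224 CPM) were highest in WT 3 too, and dendritic cell markers summed to 174 to 246 CPM. Xist, made in female cells, was at 871 CPM in WT 3 and 1130 CPM in FOXO3 KO 3 and below 1 CPM elsewhere. All 12 general macrophage markers were detected, at 15110 to 19857 CPM in sum, while the 6 adipocyte markers stayed below 1 CPM in every library. Results are given for the 6 libraries as labelled and, where it matters, without FOXO3 KO 2 or without WT 3.

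None of the 9 genes passed the test at an adjusted p of 0.05 (edgeR's quasi-likelihood test, Benjamini-Hochberg adjustment over all 15608 genes tested), and 0% of all genes did. At an unadjusted p under 0.05 edgeR counted 1 of the 9, Olr1, higher in FOXO3 KO, beside 4.04% of all genes in that direction and 5.68% in either. DESeq2 called Olr1 alone among the 9, both with all libraries, where it called 0.826% of all genes, and without FOXO3 KO 2, where it called 0.703%, and limma-voom called none. The log2 fold change of FOXO3 KO against WT was above 0 for 8 of the 9, beside 48.8% of all genes tested, with a median of 0.24 beside -0.01 over all genes. Without FOXO3 KO 2 it was above 0 for 7 of 9 (47.6% of all genes) with a median of 0.23, and without WT 3 for 7 of 9 (50.7% of all genes) with a median of 0.34. In 2 of the 9, Olr1 and Stab1, every FOXO3 KO library lay above every WT library, which 7% of all genes did, and 0 of the 9 showed the opposite order, which 5.36% of all genes did. These cells are a mixture, and fewer cells of a type and less RNA per cell cannot be told apart in any value below.

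**Figure D1:**
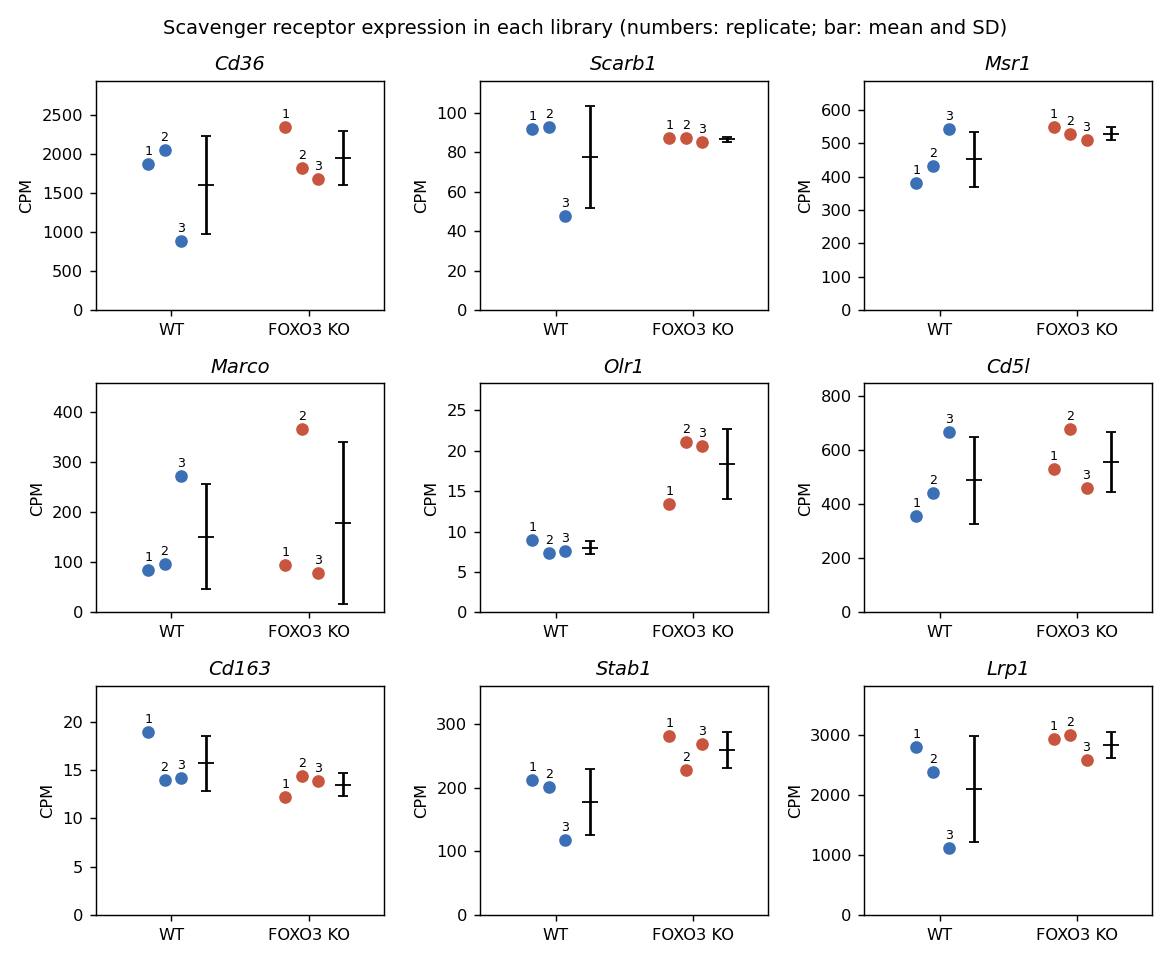
CPM of each of the 9 genes in each library, with WT in blue and FOXO3 KO in red, the replicate number above each point, and the group mean and SD (n = 3) as a bar at the side. The Olr1 points of the groups lie apart, from 7.41 to 8.92 CPM in WT and from 13.4 to 21.1 CPM in FOXO3 KO, while Cd36, Scarb1 and Lrp1 have 1 low point each, WT 3.

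Olr1 encodes LOX-1, a C-type lectin-like receptor best known for binding oxidized LDL on endothelium and macrophages. It lies on the reverse strand of chr6:129485244-129507165 (GRCm38). The 250 bases before its start (GRCm38.p6, reverse strand, chr6:129507166-129507415) and those before the start of Stab1 (reverse strand, chr14:31168642-31168891), both as RefSeq gives them, are printed because these were the members whose groups did not overlap. Capitals mark the letters of an AP-1 site (TGACTCA) and of the purine-rich core GAGGAA, both known from macrophage promoters, read on either strand.
Olr1: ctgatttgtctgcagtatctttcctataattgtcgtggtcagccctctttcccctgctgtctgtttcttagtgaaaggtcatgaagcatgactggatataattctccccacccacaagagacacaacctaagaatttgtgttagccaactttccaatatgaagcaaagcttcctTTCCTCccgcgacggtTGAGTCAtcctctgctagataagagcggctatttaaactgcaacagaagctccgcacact
Stab1: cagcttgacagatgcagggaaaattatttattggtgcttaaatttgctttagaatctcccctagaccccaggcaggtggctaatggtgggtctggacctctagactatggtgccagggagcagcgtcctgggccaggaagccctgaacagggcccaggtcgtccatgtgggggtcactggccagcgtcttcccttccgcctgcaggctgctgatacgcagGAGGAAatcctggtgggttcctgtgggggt

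The Olr1 window holds AP-1 letters at positions -60 to -54 and the purine core at -76 to -71 from the start, both on the strand opposite to the gene. The Stab1 window holds the purine core at -30 to -25 on the strand of the gene. Windows were found for 7 of the 9 genes (none was given for Msr1 and Scarb1) and run from 250 bases before to 50 after the start. The purine core was found in 4 of these 7, Marco, Olr1, Cd5l and Stab1, beside 28.3% of all 32851 windows, and the AP-1 letters in 1 of 7, Olr1, beside 5.2%. The core letters of a FoxO element, GTAAACA, were in 0 of 7 windows and in 3.65% of all windows. These matches describe letters and not binding, all motifs were read on both strands, and the matches printed do not overlap each other.

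Olr1 was at 8.92, 7.41 and 7.63 CPM in WT 1, 2 and 3 (322, 210 and 273 counts) and at 13.4, 21.1 and 20.6 CPM in FOXO3 KO 1, 2 and 3 (379, 579 and 686 counts). The WT libraries lay close together, and the lowest FOXO3 KO library was still above the highest of them. The highest Olr1 value was in FOXO3 KO 2, where Foxo3 was at the WT level (104 CPM). In that library Olr1 went with the label and not with the Foxo3 transcript. In the other libraries the label and the Foxo3 transcript went together. Whether the loss of Foxo3 bears on Olr1 was not tested. Mean Olr1 was 7.99 ± 0.814 CPM in WT and 18.4 ± 4.29 CPM in FOXO3 KO (SD, n = 3 each), and the fitted difference was 2.30-fold (95% interval 1.61 to 3.28). On the log2 scale the fold change was 1.20 (SE 0.21), with an unadjusted p of 0.00113 and an adjusted p of 0.714 in edgeR's test. By DESeq2 the adjusted p of Olr1 was 8.11e-04, and by limma-voom it was 0.826. The exact two-sided permutation test of Olr1 gave p = 0.1, the smallest that 3 against 3 libraries allow. Without FOXO3 KO 2 the log2 fold change of Olr1 was 1.09 (SE 0.24, edgeR adjusted p = 0.793, DESeq2 adjusted p = 0.0363), and without WT 3 it was 1.18 (edgeR adjusted p = 0.451). Among libraries low in Xist (WT 1 and 2 against FOXO3 KO 1 and 2) the log2 difference of Olr1 was 1.01, and between the single Xist-high libraries, WT 3 and FOXO3 KO 3, it was 1.37. The study also picked Olr1 from these libraries for a follow-up by qPCR, which was not analysed here. The choice of Olr1 is therefore not independent of its values in these libraries.

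Markers of some other cell types were higher in FOXO3 KO. Every FOXO3 KO library lay above every WT library in 4 of 5 fibroblast, 5 of 7 mesothelial and 4 of 7 neutrophil markers tested. Of all genes 7% did so. Among the sums of markers, only the fibroblast sum separated the groups as Olr1 did. The mesothelial sum missed doing so through WT 3 alone (13.5 CPM, against 13.1 CPM in FOXO3 KO 1). The median log2 fold changes of B cell, T cell and mast cell markers were -1.95, -0.91 and -0.79 (-0.50, 0.13 and 0.22 without WT 3). Summed levels of 6 fibroblast markers were 40.9 to 75.7 CPM in WT and 93.5, 482 and 169 CPM in FOXO3 KO 1, 2 and 3, with Lum below 1 CPM in every library. Sums of 8 mesothelial markers were 7.31, 6.21 and 13.5 CPM in WT and 13.1, 44.3 and 19.0 CPM in FOXO3 KO, with Msln below 1 CPM throughout. Neutrophil markers, 10 in all, summed to 126 to 195 CPM in WT and to 467, 193 and 386 CPM in FOXO3 KO, with Ly6g, Ngp and Camp below 1 CPM throughout. Csf3r alone was at 137, 139 and 116 CPM in WT and 159, 139 and 164 CPM in FOXO3 KO. It made up most of the sum in WT and in FOXO3 KO 2. The fibroblast sum did not overlap between the groups, the mesothelial sum did by a narrow margin, and the neutrophil sum of FOXO3 KO 2 lay among the WT values. The median log2 fold change was 2.05 for the fibroblast and 2.17 for the mesothelial markers tested (1.37 and 1.24 without FOXO3 KO 2) and 0.73 for the neutrophil markers (1.12 without FOXO3 KO 2, 0.35 without FOXO3 KO 1 and 0.46 without WT 3). DESeq2 called 3 of 5 fibroblast, 3 of 7 mesothelial and 3 of 7 neutrophil markers tested, beside 0.826% of all genes, and edgeR called none. The mesothelial markers Krt8 and Krt18 were the 2 not higher, with log2 fold changes of -0.07 (SE 0.71) and -0.08 (SE 0.67). Without WT 3 these were 1.10 and 0.83. In that fit 7 of 7 mesothelial markers tested were above 0, beside 50.7% of all genes. Krt8 had its highest value, 7.02 CPM, in WT 3, the WT library of the highest mesothelial sum. Of the 7 dendritic cell markers 6 had a log2 fold change above 0, beside 48.8% of all genes. The median was 0.54 (0.60 without FOXO3 KO 2, 0.62 without WT 3), and neither tool called any. The exception, Ccr7, was at -1.32 (0.29 without WT 3). Every FOXO3 KO library lay above every WT library in 1 of the 7, Xcr1. Markers of endothelial cells, known to carry Olr1, summed to 138 to 143 CPM in WT and 109 to 145 CPM in FOXO3 KO. Of the 8, 2 were at 0 counts in all libraries, and most of the sum was Vwf and Pecam1. In WT 3 Vwf was at its lowest (26.4 CPM) and Pecam1 at its highest (108 CPM). The close WT sums therefore do not show a steady content of endothelial cells. The part of these cells in the Olr1 result was not tested.

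The 5 genes whose log2 levels followed Olr1 most closely over the 6 libraries, out of 10536 compared, were Slco3a1 (Pearson r = 0.983), Cep85l (0.981), Zdhhc21 (0.981), Cdk1 (0.980) and Col1a1 (0.978). These r values describe 6 points that share the order of the groups, and 60 genes reached an r of 0.9. Slco3a1, an organic anion transporter, was at 8.42, 7.83 and 7.97 CPM in WT and 9.81, 15.0 and 14.6 CPM in FOXO3 KO. Cdk1, the kinase that drives mitosis, was at 5.43, 5.12 and 4.61 CPM in WT and 8.79, 11.5 and 10.1 CPM in FOXO3 KO. Col1a1, a collagen chain and 1 of the fibroblast markers above, was at 7.81, 6.35 and 5.20 CPM in WT and 12.5, 50.4 and 34.5 CPM in FOXO3 KO. DESeq2 called Cdk1 (adjusted p = 1.39e-04) and Col1a1 (adjusted p = 0.00213) and not the other 3, and edgeR called none of the 5.

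Olr1 sits in a cluster of C-type lectin genes on chromosome 6, and 8 of its neighbours were examined, of which 6 passed the filter on low counts. Their log2 fold changes had a median of -0.11 (-0.32 without FOXO3 KO 2, -0.44 without WT 3), with 2 higher and 4 lower. None passed the adjusted threshold or an unadjusted p of 0.05 in edgeR's test, and none was called by DESeq2. Clec7a, the beta-glucan receptor dectin-1, was at 642, 796 and 226 CPM in WT and 536, 666 and 373 CPM in FOXO3 KO. Clec12a, an inhibitory receptor of myeloid cells, was at 242, 279 and 73.0 CPM in WT and 251, 262 and 204 CPM in FOXO3 KO. Gabarapl1, an autophagy protein encoded in the same stretch, was at 136, 151 and 49.6 CPM in WT and 103, 129 and 73.8 CPM in FOXO3 KO. All 3 were lowest in WT 3, unlike Olr1, which had its lowest value in WT 2. Clec9a, a receptor of cross-presenting dendritic cells, and Clec1b, the platelet receptor of podoplanin, stayed below 10 CPM in every library.

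Stab1 encodes stabilin-1, a large receptor of alternatively activated macrophages and sinus endothelium that takes up acetylated LDL, phosphatidylserine on dying cells and the matrix protein SPARC. It was at 213, 202 and 118 CPM in WT 1, 2 and 3 and at 282, 227 and 269 CPM in FOXO3 KO 1, 2 and 3. The groups did not overlap, although the gap between WT 1 and FOXO3 KO 2 was small beside the distance of WT 3 from the rest of its group. Mean Stab1 was 177 ± 51.8 CPM in WT and 260 ± 28.5 CPM in FOXO3 KO (SD, n = 3 each). Its log2 fold change was 0.55 (SE 0.24, 95% interval -0.04 to 1.13), with an unadjusted p of 0.0619 and an adjusted p of 0.839 in edgeR's test. The exact permutation test of Stab1 gave p = 0.1, again the smallest possible. Without WT 3 the log2 fold change was 0.34 and without FOXO3 KO 2 it was 0.64. The difference was 0.29 on the log2 scale within the Xist-low libraries and 1.19 between the single Xist-high ones.

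Cd36 and Scarb1 are the class B receptors, hairpin-shaped proteins with 2 membrane spans. Cd36 takes up oxidized LDL and long-chain fatty acids. It was at 1868, 2042 and 880 CPM in WT and at 2344, 1812 and 1681 CPM in FOXO3 KO, so that the FOXO3 KO libraries fell on both sides of WT 1 and 2 and WT 3 was far lower than all others. The log2 fold change of Cd36 was 0.29 (SE 0.36, 95% interval -0.58 to 1.15, edgeR adjusted p = 0.886), and without WT 3 it was 0.00. Scarb1, the HDL receptor, was at 91.9, 92.9 and 47.8 CPM in WT and at 87.3, 87.1 and 85.3 CPM in FOXO3 KO. The FOXO3 KO libraries lay close together (SD 1.11 CPM, n = 3) and below WT 1 and 2. For Scarb1 the log2 fold change was 0.16 (SE 0.26, 95% interval -0.46 to 0.78, edgeR adjusted p = 0.904) and turned to -0.08 without WT 3. Both were lowest in WT 3, the library of high resident macrophage and B cell markers, and the part of those cells was not tested.

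Lrp1 is the large endocytic receptor of the LDL receptor family that clears apolipoprotein E remnants and protease-inhibitor complexes. It was at 2805, 2377 and 1118 CPM in WT and at 2927, 2994 and 2581 CPM in FOXO3 KO. As in Cd36, WT 3 was low, while WT 1 lay within the FOXO3 KO range. Means were 2100 ± 877 CPM and 2834 ± 222 CPM (SD, n = 3 each), and the log2 fold change was 0.43 (SE 0.37, 95% interval -0.46 to 1.32, edgeR adjusted p = 0.856). Without WT 3 the log2 fold change of Lrp1 was 0.14. Of the 9 genes, 4 had their lowest value in WT 3 (Cd36, Scarb1, Stab1 and Lrp1), and WT 3 was the lowest library for 37.5% of all genes.

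Msr1 and Marco are class A receptors, collagen-like trimers that bind acetylated LDL and bacterial surfaces. Msr1 was at 382, 432 and 543 CPM in WT and at 550, 529 and 509 CPM in FOXO3 KO. Every FOXO3 KO library was above WT 1 and 2, and WT 3 lay among them. For Msr1 the log2 fold change was 0.23 (SE 0.17, 95% interval -0.18 to 0.63, edgeR adjusted p = 0.852). Without WT 3 it was 0.39, with an unadjusted p of 0.00598 in edgeR's test, in a fit where 8.41% of all genes had an unadjusted p under 0.05, 6.15% with FOXO3 KO higher. In that fit 4 of the 9 did, Olr1, Msr1, Stab1 and Cd5l, all higher in FOXO3 KO, and none passed the adjusted threshold. In the same fit all 10 resident macrophage markers had a log2 fold change above 0 (median 0.90), beside 50.7% of all genes. With all 6 libraries all 10 were below 0 (median -1.69). The part of resident macrophages in the Msr1 values was not tested.

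Marco was the member that differed most between libraries of 1 group. It was at 85.4, 97.5 and 272 CPM in WT and at 94.4, 366 and 77.9 CPM in FOXO3 KO, and its highest values were in WT 3 and in the library labelled FOXO3 KO 2. These were also the libraries of highest resident macrophage marker sums, 4620 and 513 CPM, although those sums were far apart from each other and the Marco levels were not. FOXO3 KO 3, with a sum of 461 CPM close to that of FOXO3 KO 2, had the lowest Marco level of all 6 libraries. Behind these close sums, F5, Alox15 and Icam2 were lower in FOXO3 KO 2 than in FOXO3 KO 3 (F5 116 and 185 CPM). The other resident markers were higher in FOXO3 KO 2, as Marco was (Timd4 51.2 and 18.2 CPM, Vsig4 99.6 and 48.3 CPM). Marco had a log2 fold change of 0.24 (SE 0.73, 95% interval -1.54 to 2.02, edgeR adjusted p = 0.948). Its direction rested on single libraries, with -0.81 without FOXO3 KO 2, -0.06 without WT 1 and 0.98 without WT 3.

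Cd5l and Cd163 carry scavenger receptor cysteine-rich domains. Cd5l, also called AIM, is a secreted inhibitor of apoptosis and of fatty acid synthase that macrophages release. It was at 355, 440 and 666 CPM in WT and at 530, 676 and 458 CPM in FOXO3 KO, with the groups overlapping and the 2 highest values in the same libraries as for Marco. Cd5l had a log2 fold change of 0.19 (SE 0.28, 95% interval -0.48 to 0.86, edgeR adjusted p = 0.901), and it was 0.02 without FOXO3 KO 2, -0.00 without WT 1 and 0.49 without WT 3. WT 3 was the highest WT library for 3 of the 9, Msr1, Marco and Cd5l, although for none of the 9 was it the highest of all 6 libraries, as it was for 37.2% of all genes. The part of resident macrophages in these values was not tested. Cd163, the receptor of haemoglobin bound to haptoglobin, was at 18.9, 14.0 and 14.1 CPM in WT and at 12.2, 14.4 and 13.9 CPM in FOXO3 KO. It was the only member with a log2 fold change below 0, at -0.22 (SE 0.17, 95% interval -0.62 to 0.19, edgeR adjusted p = 0.854), and its groups overlapped.

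**Figure D2:**
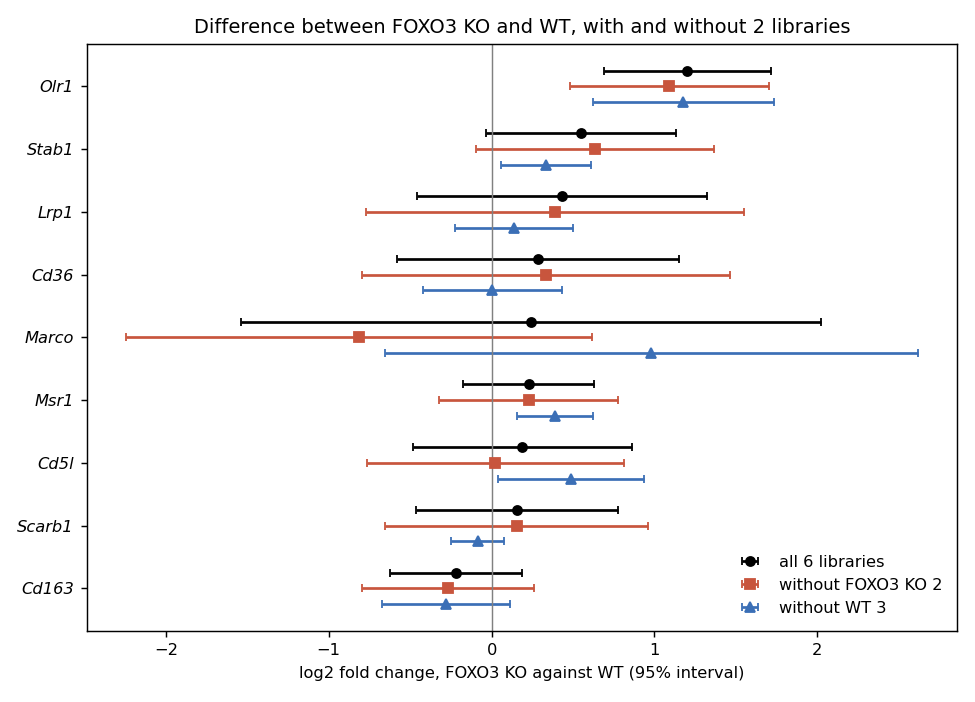
Log2 fold change of FOXO3 KO against WT (x axis) for each of the 9 genes, with its 95% interval, in the edgeR fit of all 6 libraries (black), without FOXO3 KO 2 (red) and without WT 3 (blue). The Olr1 intervals lie above 0 in all 3 fits, from 0.69 to 1.72 with all libraries, while Marco runs from -0.81 without FOXO3 KO 2 to 0.98 without WT 3.

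**Figure D3:**
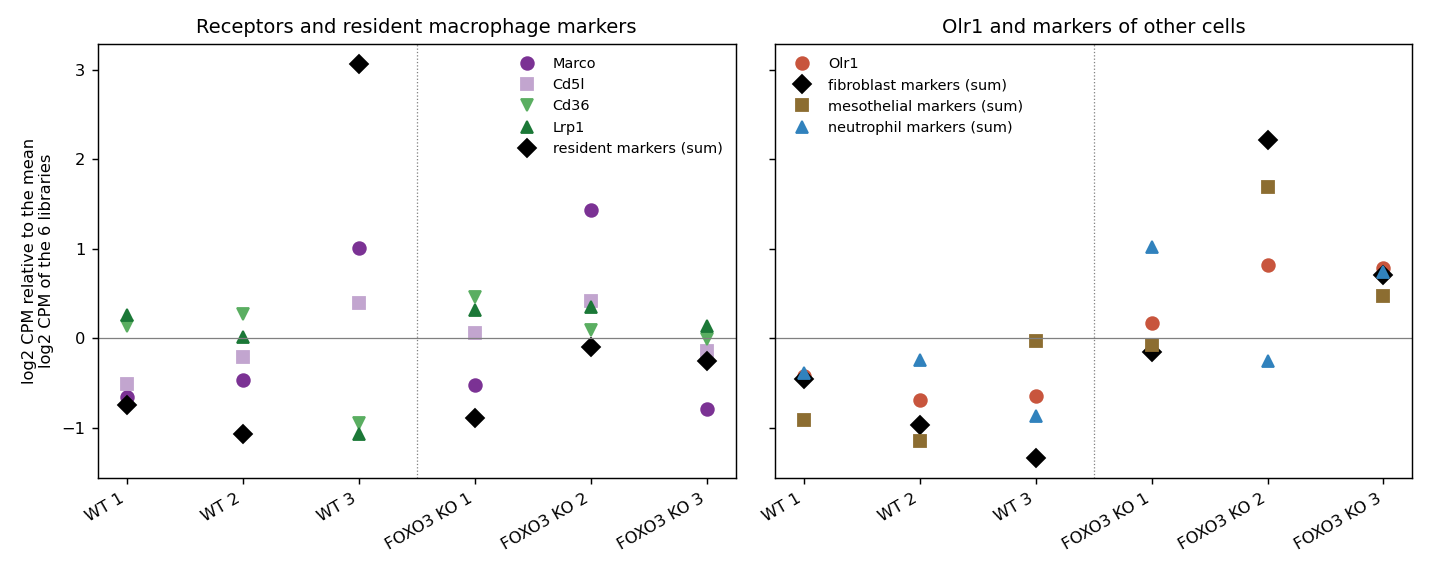
Log2 CPM of single genes and of summed marker lists in each library, relative to the mean log2 CPM of the 6 libraries. On the left, resident macrophage markers peak in WT 3, where Marco and Cd5l are high and Cd36 and Lrp1 low; on the right, Olr1 and the fibroblast sum are each higher in all 3 FOXO3 KO libraries than in any WT library.

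Per length of exon sequence, the receptors covered a range from Cd36 at 493 ± 137 to Cd163 at 2.67 ± 0.417 CPM per kb (SD over all 6 libraries). Cd36 was followed by Cd5l at 256 ± 63.4 and Lrp1 at 139 ± 39.5 CPM per kb. Cd36 exceeded Cd5l in 5 of 6 libraries, the exception being WT 3, and Cd5l exceeded Lrp1 in 6 of 6. Marco at 86.0 ± 63.8 and Msr1 at 77.4 ± 10.8 CPM per kb could not be ordered, since Marco was the higher in 2 of 6 libraries. Lrp1 and Marco changed places in WT 3 and FOXO3 KO 2, so that this step also stayed within the spread. Stab1 at 21.2 ± 5.69, Scarb1 at 9.65 ± 2.01 and Olr1 at 3.69 ± 1.77 CPM per kb followed, each below the one before in 6 of 6 libraries. Olr1 and Cd163 were the lowest, and Olr1 exceeded Cd163 in the 3 FOXO3 KO libraries and in no WT library. Lengths are the merged exons of all GENCODE M21 transcripts of a gene and can overstate the length of the transcript in these cells.

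Other scavenger receptors were examined as a list of 16, of which 14 passed the filter on low counts. Of these 12 had a log2 fold change above 0 and 2 below, beside 48.8% of all genes above 0. Without WT 3 it was above 0 for 6 of 14, beside 50.7% of all genes. The median was 0.21, and it was 0.10 without FOXO3 KO 2 and -0.03 without WT 3. None passed the adjusted threshold in edgeR's test or was called by DESeq2. In edgeR's test 1 had an unadjusted p under 0.05, beside 5.68% of all genes. These shares of all genes also stand beside the lists that follow. Cd68, a lysosomal glycoprotein of macrophages and the most abundant of the list in CPM, was at 1337, 1472 and 525 CPM in WT and 1329, 1338 and 990 CPM in FOXO3 KO. Mrc1, the mannose receptor, was at 579, 573 and 193 CPM in WT and 486, 464 and 503 CPM in FOXO3 KO. Cd44, the hyaluronan receptor, was at 517, 580 and 287 CPM in WT and 616, 556 and 552 CPM in FOXO3 KO. Scarb2, a lysosomal relative of Cd36, was at 314, 368 and 236 CPM in WT and 311, 343 and 276 CPM in FOXO3 KO. In each of these WT 3 was the lowest library and the other WT libraries lay among or above the FOXO3 KO ones, apart from WT 1 in Cd44. Colec12, a collagen-like receptor named here after its values were seen, was the gene with the unadjusted p under 0.05. It was at 27.5, 19.5 and 62.4 CPM in WT and 89.4, 68.9 and 88.8 CPM in FOXO3 KO, without overlap (log2 fold change 1.17, SE 0.43, edgeR adjusted p = 0.836). Without WT 3 the log2 fold change of Colec12 was 1.82 (SE 0.20, edgeR adjusted p = 0.327).

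Relatives of Lrp1 in the LDL receptor family numbered 11, of which 10 passed the filter. Their log2 fold changes were above 0 for 9 (7 of 10 without WT 3), with a median of 0.17 (0.15 without FOXO3 KO 2, 0.10 without WT 3). In edgeR's test 2 had an unadjusted p under 0.05, Lrp8 and Lrp5, and none passed the adjusted threshold. Lrp12 was at 223, 284 and 70.4 CPM in WT and 250, 230 and 174 CPM in FOXO3 KO. Lrp6, a Wnt co-receptor, was at 146, 134 and 123 CPM in WT and 156, 150 and 150 CPM in FOXO3 KO, a small step without overlap (log2 fold change 0.18, SE 0.10). Lrp10, Lrpap1 (the chaperone of Lrp1) and Sorl1 had log2 fold changes of 0.06, 0.16 and -0.23, and Sorl1 turned to 0.18 without WT 3. Lrp5, the other Wnt co-receptor and chosen after its values were seen, was at 26.4, 26.7 and 29.8 CPM in WT and 35.2, 42.2 and 38.3 CPM in FOXO3 KO. For Lrp5 the log2 fold change was 0.48 (SE 0.11, edgeR adjusted p = 0.714, DESeq2 adjusted p = 0.0435), and it was the member of this list that DESeq2 called.

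Adaptors, kinases and shedding proteases that act on these receptors numbered 10, of which 8 passed the filter. The log2 fold change was above 0 for 6 of the 8, and for 6 of the 9 tested without WT 3. Their median was 0.19 (0.19 without FOXO3 KO 2, 0.01 without WT 3), and 2 had an unadjusted p under 0.05 in edgeR's test, Dab2 and Fyn, with none past the adjusted threshold and none called by DESeq2. Dab2, a clathrin adaptor of LDL receptor family tails, was at 167, 144 and 154 CPM in WT and 268, 184 and 292 CPM in FOXO3 KO, without overlap. Its log2 fold change was 0.68 (SE 0.19, edgeR adjusted p = 0.714). Lyn, a kinase that acts downstream of Cd36, was at 292, 298 and 431 CPM in WT and 306, 323 and 357 CPM in FOXO3 KO. The sheddases Adam10 and Adam17 had log2 fold changes of 0.13 and 0.21 (0.01 and -0.03 without WT 3), with WT 3 the lowest library in both.

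Transcription factors known to act on macrophage lipid and scavenger genes, 11 in all, passed the filter without exception. The log2 fold change was above 0 for 8 of them (6 of 11 without WT 3). The median was 0.07 (0.05 both without FOXO3 KO 2 and without WT 3), and in edgeR's test none had even an unadjusted p under 0.05. DESeq2 called none of these either. Maf, a factor of macrophage differentiation, was at 267, 242 and 93.1 CPM in WT and 306, 273 and 302 CPM in FOXO3 KO. Its groups did not overlap, with WT 3 the lowest library. Stat6, the factor downstream of IL-4, Nfe2l2, the oxidative stress factor, and Spi1, which encodes PU.1, had log2 fold changes of 0.07, 0.34 and 0.14. Without WT 3 these were -0.083, 0.048 and -0.082, and that of Maf was 0.22.

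Ligands of the receptors and the haem-degrading enzyme Hmox1 formed a list of 12, of which 10 passed the filter. Of these 9 had a log2 fold change above 0, and without WT 3 it was above 0 for 7 of the 11 then tested. The median was 0.28, and it was 0.24 without FOXO3 KO 2 and 0.03 without WT 3. In edgeR's test 3 had an unadjusted p under 0.05, none past the adjusted threshold. Apoe, the lipoprotein ligand of Lrp1, was at 4451, 5199 and 4177 CPM in WT and 4319, 4537 and 4240 CPM in FOXO3 KO, close between groups. Lpl, lipoprotein lipase, was at 2425, 2864 and 1012 CPM in WT and 2866, 2238 and 1981 CPM in FOXO3 KO. Thbs1, thrombospondin-1, a ligand of Cd36, was at 396, 567 and 1481 CPM in WT and 984, 903 and 900 CPM in FOXO3 KO, with WT 3 the highest of all. Calr and Hmox1 had log2 fold changes of 0.09 and 0.19, and Hmox1 turned to -0.11 without WT 3. Sparc and Plat, named after their values were seen, were among the genes with an unadjusted p under 0.05. Sparc, the ligand of stabilin-1, was at 15.1, 12.7 and 8.97 CPM in WT and 20.6, 107 and 43.4 CPM in FOXO3 KO (log2 fold change 2.21, SE 0.60, edgeR adjusted p = 0.714, DESeq2 adjusted p = 0.0244). Without FOXO3 KO 2 the log2 fold change of Sparc was 1.38 (edgeR adjusted p = 0.912). Its highest value stood in FOXO3 KO 2, the library of the highest fibroblast and mesothelial sums, and the part of those cells was not tested.

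**Figure D4:**
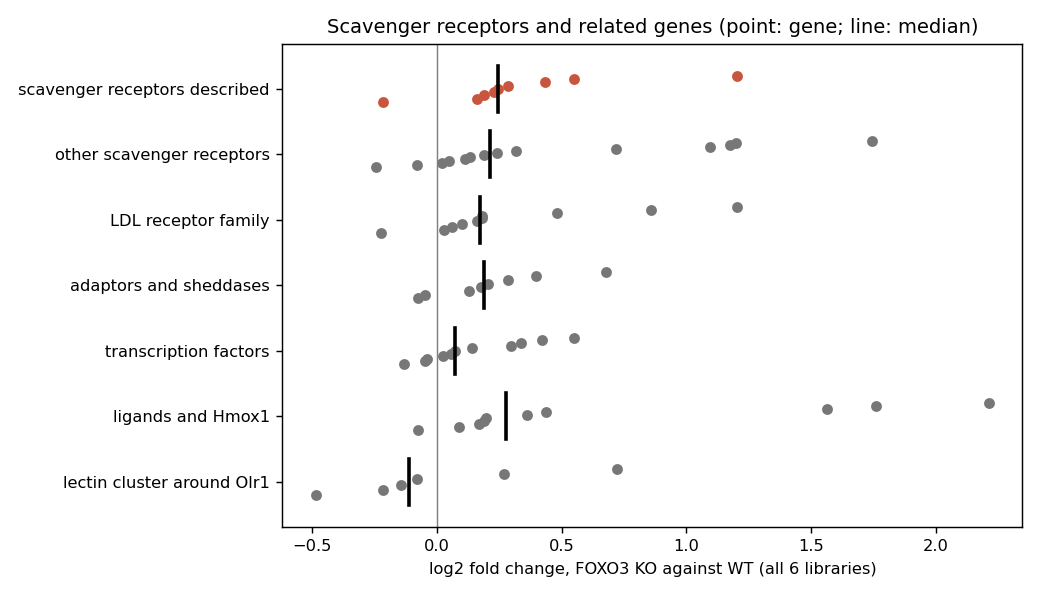
Log2 fold change of FOXO3 KO against WT over all 6 libraries (x axis) for the 9 receptors (red) and for each tested gene of the 6 other lists (grey), with the list median as a black line. Medians run from -0.11 for the lectin cluster around Olr1 to 0.28 for the ligands, and no gene shown passed the adjusted threshold in edgeR's test.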

How the data were processed

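Paired 76 bp reads of 3 WT and 3 FOXO3 KO libraries of peritoneal cells had been turned by the authors into estimated counts per gene, which they deposited unnormalized for 54648 symbols. Per the labels, the submitters' processing notes name STAR 2.6.1d, kallisto 0.46.0, DESeq2 and mm10, with no role for each, and no annotation was found in these sources. The estimated counts, 81.4% of which were whole to within 0.01, were rounded. Reads shared with near-identical copies depend on that counting, and strand use is not stated.

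Groups were taken from the genotype labels. Genes were filtered with filterByExpr (15608 kept), scaled by TMM (factors 0.936 to 1.10) and tested by quasi-likelihood in edgeR 4.0.16 (R 4.3.3), adjusted by Benjamini-Hochberg over these genes at a threshold of 0.05. The common dispersion was 0.103. Each standard error was the log2 fold change divided by the root of its F. Exact permutation tests, two-sided, used log2(CPM + 0.5). The steps were tested on simulated data. Alternatives were DESeq2 1.42.0, limma-voom (limma 3.58.1), other scaling factors and filters, pseudocount 1, the replicate number as a block, a covariate for the split by Xist, and each library left out. The covariate with FOXO3 KO 2 left out was added after seeing the data.

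The receptors and lists were chosen with earlier results of these data known. Named were Foxo3, the 9 receptors, the 5 genes of each list with the largest mean CPM, any past the threshold, and the 5 genes of at least 5 CPM most like Olr1. Some genes that this rule names are not reported here. Gene positions and exon lengths came from GENCODE M21 (GRCm38), in which 170 of 170 list genes were found, and promoter windows from RefSeq (GRCm38.p6). Other data of the paper were not analysed here.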

Additional observations from a re-analysis of the deposited data

How the results depend on the processing

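Of the 9 receptors, DESeq2 called 1, Olr1, with all libraries and also 1 without FOXO3 KO 2, where edgeR called 0. Olr1 stayed between 1.03 and 1.38 on the log2 scale over the settings run. Foxo3 itself passed the threshold at -4.46 by DESeq2 without FOXO3 KO 2 (adjusted p = 8.31e-44) and at -4.35 in edgeR with the Xist covariate and FOXO3 KO 2 left out (adjusted p = 0.00536, chosen after seeing the data). Leaving out 1 library at a time moved Foxo3 between -4.46 and -0.87 on the log2 scale. The number of receptors at the smallest permutation p then ran from 2 to 5, the latter without WT 3, where the exact test cannot go below 0.2. Those 5 mixed directions: every FOXO3 KO library lay above WT 1 and 2 in Olr1, Stab1, Msr1 and Cd5l, and below them in Scarb1. The share of all genes with such an order without WT 3 is not given here. The direction turned in Marco, to -0.81 without FOXO3 KO 2 in both edgeR and DESeq2, -0.70 with the covariate added and -0.06 without WT 1. With single libraries left out Marco ran from -0.81 to 0.98, Cd5l from -0.0045 (without WT 1) to 0.49, and Scarb1 from -0.084 (without WT 3) to 0.31. The cause was not tested. Of the log2 fold changes of the 9 receptors under other settings, 136 kept their direction and their side of the threshold, 6 turned and 2 newly passed it. The medians of the adaptors and of the transcription factors moved to 0.42 and 0.44 without WT 2. Whether replicate numbers pair the libraries could not be told. Deviations of same-numbered libraries from their group means correlated at 0.339, -0.0612 and 0.567, the last between the Xist-high libraries. Those of WT 2 and FOXO3 KO 1 correlated at 0.611. With the replicate block 0 receptors passed and Foxo3 was at -3.06 (edgeR adjusted p = 0.729).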
